A study of Homo sapiens with 3 samples.

Results

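The miR-106b-25 cluster (hairpins hsa-mir-106b, hsa-mir-93 and hsa-mir-25) and the miR-106a-363 cluster (hsa-mir-106a, hsa-mir-18b, hsa-mir-20b and hsa-mir-363) were followed in small RNA sequencing of a human cell line. The members were defined by hairpin name, with both arms of each hairpin, and earlier results of these data were known at that choice. This gave 14 mature arms from 7 hairpins among 2817 listed rows from 1878 hairpins. The miR-106b-25 hairpins gave 6 of these arms and the miR-106a-363 hairpins 8. All 6 arms of the first and 5 of the 8 arms of the second reached a mean count of at least 10, and the remaining 3 (miR-106a-3p, miR-18b-3p and miR-20b-3p) are given as counts only.

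The cells were Flp-In T-REx 293 cells, HEK293 derivatives (human embryonic kidney) with an integrated tetracycline repressor, and they were transduced with lentiviral vectors. The control carried the parent vector with a GFP cassette and no hairpin (empty vector), and the other cultures carried the same cassette with a synthetic miR-1 or miR-122 hairpin in its intron, under a doxycycline-inducible CMV promoter. All 3 cultures were selected with 1 mg/mL Geneticin for 6 days, and doxycycline at 1 ug/mL followed for 7 days, in the control too. There was 1 library for each group, made from 1000 ng of total RNA of the transduced population, so no difference below has a replicate check and no test between conditions was possible. All intervals are 95% intervals for counting error alone. In bulk RNA, fewer cells that make a miRNA and less of it per cell cannot be told apart.

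The clusters are paralogues of miR-17-92, a polycistronic transcript that is cut into several miRNA hairpins. A microRNA loaded into an Argonaute protein pairs with messenger RNAs mainly through its seed, bases 2 to 8 from the 5′ end, and lowers their stability and translation. Members of these clusters are known for promoting cell-cycle entry and survival, with CDKN1A, BCL2L11 and E2F factors among the targets described for them. Each hairpin gives a 5p arm and a 3p arm, of which usually the more abundant is called the guide and the other the passenger strand.

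On GRCh37 (hg19), the miR-106b-25 hairpins lie on the minus strand at chr7:99691183-99691697, a span of 515 bp, in intron 13 of the canonical transcript of MCM7, which encodes a subunit of the replicative helicase. Along the transcript come MIR106B (chr7:99691616-99691697), MIR93 (chr7:99691391-99691470) and MIR25 (chr7:99691183-99691266). MIR106B and MIR25 are intronic in 9 of 9 annotated MCM7 transcripts and MIR93 in 8 of 9. The miR-106a-363 hairpins lie on the minus strand of chromosome X at chrX:133303408-133304308, a span of 901 bp, wholly within exon 2 of a long non-coding RNA, ENSG00000283638. Their order is MIR106A (chrX:133304228-133304308), MIR18B (chrX:133304064-133304146), MIR20B (chrX:133303839-133303907), MIR19B2, MIR92A2 and MIR363 (chrX:133303408-133303482). The mature 3p arms of MIR19B2 and MIR92A2 are the same as those from miR-17-92 hairpins, so their counts could not be assigned to chromosome X, and both hairpins were left out of the cluster sums.

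The guide arms fall into 3 seed groups, and their sequences are shown because the levels below are read by seed group and because some members differ from a relative by a single base. Sequences are from RefSeq (GRCh38.p14 tables), which held 13 of the 14 member arms; miR-106a-3p had no entry. Capitals mark the seed. The first group carries the miR-17 seed and holds the 5p arms of hsa-mir-106b and hsa-mir-93 from chromosome 7 and of hsa-mir-106a and hsa-mir-20b from chromosome X, with miR-17-5p and miR-20a-5p of miR-17-92 below them.
miR-106b-5p: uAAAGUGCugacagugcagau
miR-93-5p: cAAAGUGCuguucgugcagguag
miR-106a-5p: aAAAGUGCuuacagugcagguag
miR-20b-5p: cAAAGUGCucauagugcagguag
miR-17-5p: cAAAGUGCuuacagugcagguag
miR-20a-5p: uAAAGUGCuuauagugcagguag

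The second group carries the miR-18 seed and has its only member in miR-106a-363, beside miR-18a-5p of miR-17-92.
miR-18b-5p: uAAGGUGCaucuagugcaguuag
miR-18a-5p: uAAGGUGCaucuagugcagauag

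The third group carries the miR-25 seed, on the 3p arm, and has a member at the end of each cluster, beside miR-92a-3p of miR-17-92.
miR-25-3p: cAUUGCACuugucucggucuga
miR-363-3p: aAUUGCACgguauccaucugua
miR-92a-3p: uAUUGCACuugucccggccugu

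Counted from 1 at the 5′ end, miR-106a-5p differs from miR-17-5p by C1A alone and miR-18b-5p from miR-18a-5p by A20U alone. miR-20b-5p differs from miR-20a-5p by U1C and U10C. Between the clusters, miR-106b-5p and miR-106a-5p differ by U1A, G10U and A20G, and miR-93-5p and miR-20b-5p by G10C, U11A and C13A. miR-25-3p differs from miR-363-3p at 13 of 22 positions, all outside the seed, and from miR-92a-3p at 4 of 22. The counting divided a read among the hairpins it fitted equally, and fractional counts were found among the members only for miR-106a-5p (miR-122 library) and miR-18b-5p (control and miR-1 libraries), the arms that are a single base from a more abundant relative. How many of their reads belong to that relative was not tested.

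Only in hsa-mir-106b did the arm opposite the guide come close to it in counts, so its 3p sequence is shown as well. It is more GC-rich (63.6%) than the 5p arm (42.9%).
miR-106b-3p: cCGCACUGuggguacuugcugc

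Values for the 3 libraries are given throughout in the order control, miR-1, miR-122. The libraries held 1636834, 2892684 and 2577292 counts of mature miRNAs. The synthetic hairpins took 0.0216%, 38.1% and 24.4% of the counts, in the same order, and left 1636481 to 1947669 counts for endogenous miRNAs. The labels could be checked on the induced miRNAs: miR-1-3p had 166, 1100840 and 369 counts and miR-122-5p had 10, 10 and 627576. No list of miRNA markers of these cells was used, and 6 miRNAs of blood cells, including miR-451a of red cells and miR-223-3p of myeloid cells, had at most 10 counts in any library. Levels below are counts, and CPM gives counts relative to the TMM-scaled library size of endogenous miRNAs. Mature members are 21 to 23 bases long, so no length correction was made, and how well each sequence was captured in the libraries was not measured.

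The chromosome 7 cluster had far more counts than the 4 chromosome X hairpins that were summed. The 3p counts of MIR19B2 and MIR92A2, shared with miR-17-92, are not in that sum. miR-92a-3p alone had 104530, 109913 and 131541 counts, and the part of them from chromosome X was not tested. The 5p arms of these hairpins were scarce: miR-92a-2-5p had 1, 3 and 4 counts and miR-19b-2-5p had 0 in each library. The miR-106b-25 arms together had 100507, 105650 and 123174 counts, or 6.14%, 5.90% and 6.32% of endogenous miRNA counts. The miR-106a-363 arms together had 4635.5, 3620.5 and 5092.5 counts, or 0.283%, 0.202% and 0.261%. Within each library, miR-106b-25 therefore had 21.7 times (21.1 to 22.3) the counts of miR-106a-363 in the control, 29.2 times (28.2 to 30.2) where miR-1 was induced and 24.2 times (23.5 to 24.9) where miR-122 was. These ratios need no scaling between libraries.

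Most of the miR-106b-25 counts came from guide arms of its later hairpins. miR-25-3p, a miR-25 seed guide, had 47625, 54495 and 65232 counts, which placed it 8th, 8th and 6th among endogenous miRNAs. miR-93-5p, a miR-17 seed guide, had 42231, 40833 and 46741 counts and was 10th, 11th and 11th. Together these arms made up most of the cluster in every library: miR-25-3p supplied 47.4%, 51.6% and 53.0% of its counts and miR-93-5p 42.0%, 38.6% and 37.9%.

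Both arms of hsa-mir-106b, the first hairpin, were present at lower levels, close to each other. miR-106b-5p, the miR-17 seed arm, had 5377, 4890 and 4506 counts, highest in the control and lowest in the miR-122 library. miR-106b-3p, with a seed of its own, had 4038, 4129 and 4873 counts and was highest in the miR-122 library, where it passed the 5p arm. The passenger arms of the other hairpins were far below their guides: miR-25-5p had 788, 883 and 1364 counts and miR-93-3p 448, 420 and 458.

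Among the summed arms of miR-106a-363, the miR-25 seed arm dominated more strongly. miR-363-3p had 2954, 2347 and 3643 counts, 63.7%, 64.8% and 71.5% of its cluster, and ranked 67th, 73rd and 63rd among endogenous miRNAs. miR-20b-5p had 945, 710 and 853 counts and miR-106a-5p 680, 519 and 555.5, both highest in the control. These miR-17 seed arms supplied 20.4% and 14.7% of the cluster in the control.

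The remaining arms of the chromosome X cluster were near the limit of detection. miR-18b-5p had 28.5, 19.5 and 9 counts, although its hairpin lies between those of miR-106a-5p and miR-20b-5p. miR-363-5p had 7, 14 and 15 counts, miR-20b-3p 12, 5 and 9, and miR-106a-3p 9, 6 and 7. miR-18b-3p had 0, 0 and 1 counts. For its counts of 0 the interval reached 2.19 CPM in the control and 2.05 in the miR-1 library. The limit of 3 counts was worth 1.78 and 1.67 CPM there.

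The order of the 14 arms was nearly the same in the 3 libraries. From the top it ran miR-25-3p, miR-93-5p, the arms of hsa-mir-106b, miR-363-3p, then miR-20b-5p and miR-25-5p, then miR-106a-5p, miR-93-3p and the scarce arms. miR-106b-5p stood above miR-106b-3p in the control and miR-1 libraries and below it in the miR-122 library. miR-20b-5p stood above miR-25-5p in the control and below it in the other libraries. Neighbours that did not differ beyond their counting intervals were found only among the scarce arms: miR-20b-3p, miR-106a-3p and miR-363-5p in the control, and miR-18b-5p, miR-363-5p and the 3p arms of hsa-mir-106a, hsa-mir-20b and hsa-mir-18b in the other libraries.

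**Figure D1:**
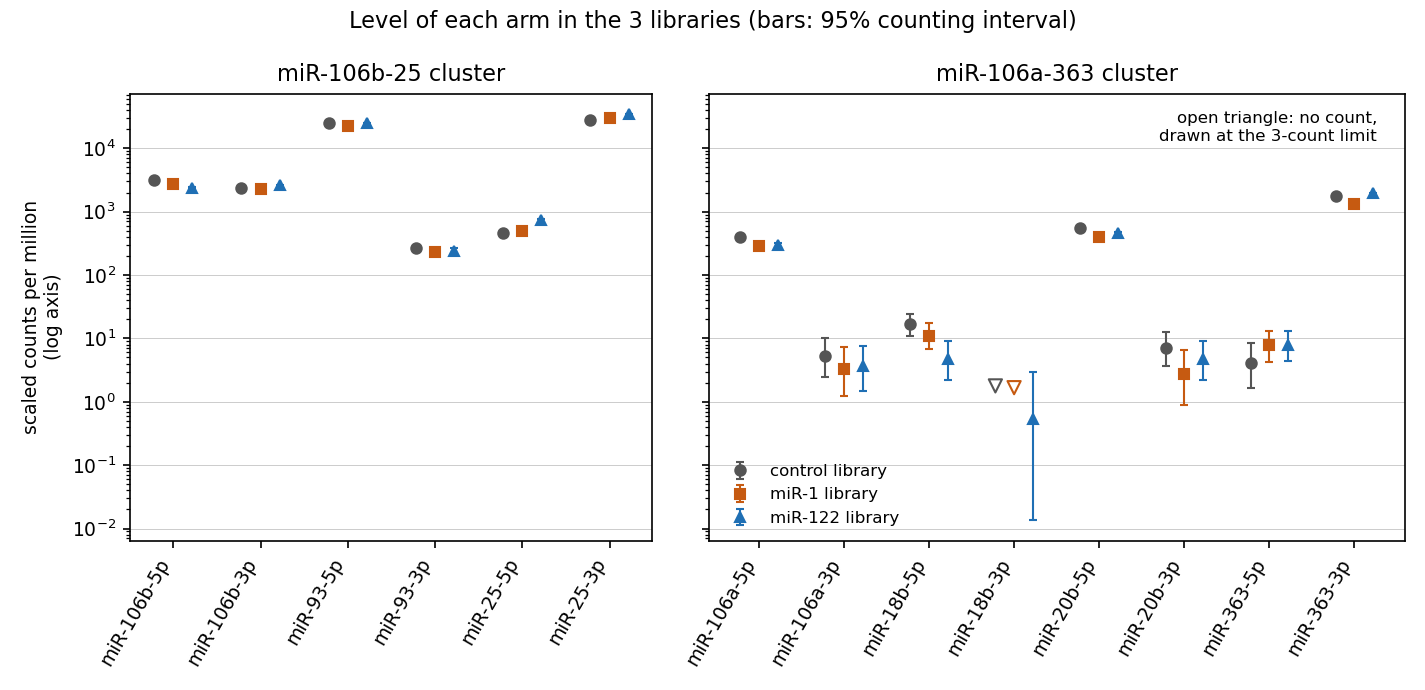
Level of each arm in CPM (vertical log axis) for the arms of both clusters (horizontal axis), with 1 point for each library and bars for the 95% counting interval; open triangles stand for no count and are drawn at the 3-count limit. miR-25-3p and miR-93-5p sit highest in all 3 libraries, and 5 of the 8 miR-106a-363 arms sit at or below 28.5 counts.

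The first comparison set the miR-1 library against the control. The 3 abundant arms of miR-106a-363 were lower in the miR-1 library than in the control, and the arms of miR-106b-25 lay closer to their control level. On the scaled log2 scale miR-20b-5p was at −0.51 (−0.65 to −0.36), miR-106a-5p at −0.48 (−0.65 to −0.32) and miR-363-3p at −0.42 (−0.50 to −0.35), all as miR-1 to control. Among the 263 endogenous miRNAs that averaged 100 counts or more, whose median was −0.03, only 12, 14 and 20 stood at or below these values.

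In miR-106b-25, miR-106b-5p was at −0.23 (−0.29 to −0.17), miR-93-5p at −0.14 (−0.16 to −0.12) and miR-25-3p at 0.10 (0.08 to 0.12), miR-1 to control. These directions held under every scaling on endogenous miRNAs, and miR-25-3p was at −0.63 with the induced miRNA in the total, where the median of all miRNAs was −0.73. The intervals of miR-106b-3p, at −0.06, of miR-93-3p, at −0.19, and of miR-25-5p, at 0.07, included 0. The sums over the clusters gave −0.02 (−0.03 to −0.01) for miR-106b-25 and −0.45 (−0.51 to −0.39) for miR-106a-363, the latter a difference of −26.8% from the control. The first of these sums has no direction that holds across scalings, with 0.073 under upper-quartile scaling, whereas the second stayed below 0 under all scalings tried, at −0.36 or lower.

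The cluster ratio, which needs no scaling, was higher in the miR-1 library than in the control by 0.43 on the log2 scale (0.36 to 0.49). Each pair of paralogous guides contributed in that direction. miR-25-3p to miR-363-3p went from 16.1 in the control to 23.2, a log2 difference of 0.53 (0.45 to 0.61). miR-93-5p to miR-20b-5p went from 44.7 to 57.5, a log2 difference of 0.36 (0.22 to 0.51). miR-106b-5p to miR-106a-5p went from 7.91 to 9.42, a log2 difference of 0.25 (0.08 to 0.43).

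**Figure D2:**
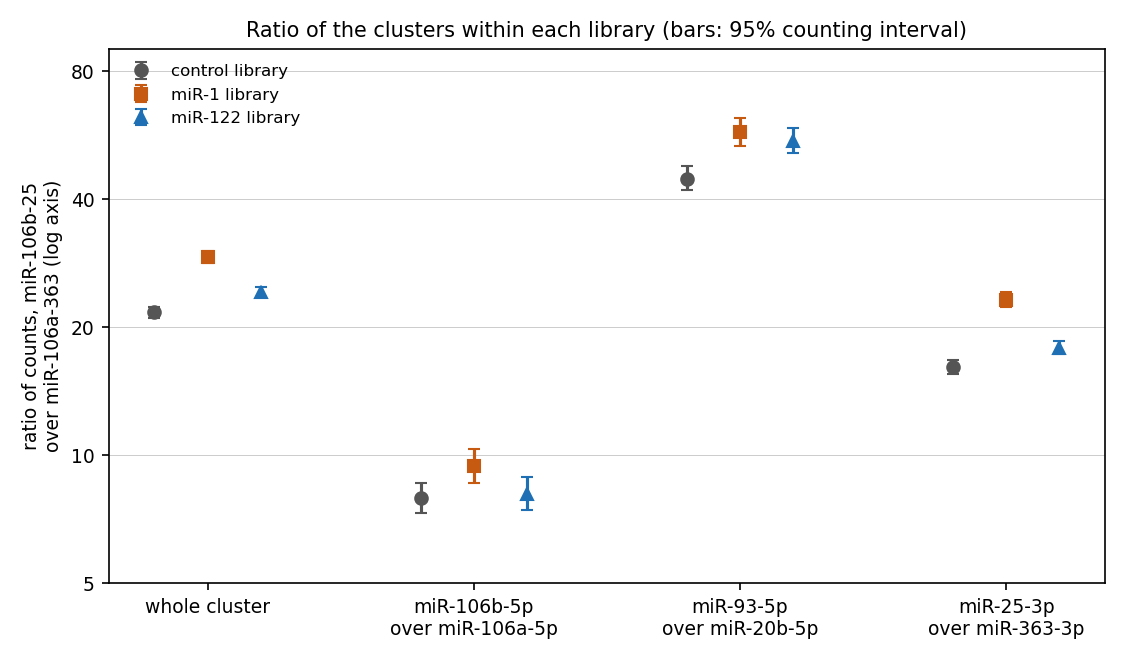
Ratio of miR-106b-25 counts to miR-106a-363 counts (vertical log axis) for the whole clusters and for 3 pairs of paralogous guides (horizontal axis), with 1 point for each library and bars for the 95% counting interval. The miR-1 library is highest for the whole cluster (29.2 against 21.7 in the control) and in each pair. For miR-93-5p to miR-20b-5p its log2 difference from the miR-122 library was 0.07 (−0.08 to 0.21), an interval that includes 0.

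By the fold limit used for all miRNAs, members were called in the miR-1 library about as often as miRNAs in general. At least 1.5-fold higher was 1 of the 11 arms, miR-363-5p (7 to 14 counts), against 7.39% of the 514 endogenous miRNAs that averaged 10 counts or more. At least 1.5-fold lower was also 1 arm, miR-18b-5p (28.5 to 19.5 counts), against 9.34%. Both rest on fewer than 30 counts and their intervals included 0 (−0.50 to 2.46 and −1.48 to 0.30). The abundant members were all within 1.5-fold. The median over the arms was −0.10 for the 6 of miR-106b-25 and −0.48 for the 5 of miR-106a-363, beside −0.00 over all 514, whose spread was 0.31 (the median absolute deviation, scaled to match an SD).

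The second comparison set the miR-122 library against the same control library, so that its values share the control counts with those above. Here values differed between arms within each cluster. Both miR-25 seed guides were higher than in the control: miR-25-3p at 0.29 (0.28 to 0.31) and miR-363-3p at 0.14 (0.07 to 0.21) on the scaled log2 scale. The miR-17 seed arms miR-106b-5p, at −0.41 (−0.47 to −0.36), miR-106a-5p, at −0.45 (−0.61 to −0.29), and miR-20b-5p, at −0.31 (−0.44 to −0.17), were lower. miR-93-5p, with the same seed, lay at −0.01 (−0.03 to 0.01). The directions named here, miR-93-5p aside, held under every scaling on endogenous miRNAs, and miR-25-3p and miR-363-3p turned negative (−0.20 and −0.35) when the induced miRNA was counted in the library total, a scaling that put the median of all miRNAs at −0.53.

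The highest ratio among the arms with over 100 counts was that of miR-25-5p, the passenger of miR-25-3p, at 0.63 (0.51 to 0.76). Of the same 263 miRNAs, 16 stood at or above it. miR-106b-3p was at 0.11 (0.05 to 0.17) and miR-93-3p at −0.13 (−0.32 to 0.06). miR-18b-5p, with 9 counts against 28.5, was at −1.77 (−3.06 to −0.67). Past the 1.5-fold limit were 2 of 11 arms on the higher side (miR-25-5p and miR-363-5p), against 11.3% of all 514, and 1 on the lower side (miR-18b-5p), against 15.8%. Scaled by the endogenous total, miR-25-5p was inside the limit, at 0.54. miR-18b-5p alone was past 2-fold, where 6.42% of all miRNAs were.

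Summed over its arms, miR-106b-25 was at 0.13 (0.12 to 0.15), miR-122 to control, and most of its counts were those of miR-25-3p. In miR-106a-363, where miR-363-3p was higher and the miR-17 seed arms were lower, the sum was at −0.02 (−0.08 to 0.03). The ratio of the clusters was higher than in the control by 0.16 (0.10 to 0.22) on the log2 scale. This difference depended on which hairpins were counted: it was −0.017 without hsa-mir-25, 0.52 without hsa-mir-363 and 0.34 without both. The pairs of paralogues were uneven: the log2 difference was 0.29 (0.16 to 0.43) for miR-93-5p to miR-20b-5p, 0.15 (0.08 to 0.22) for miR-25-3p to miR-363-3p and 0.04 (−0.13 to 0.21) for miR-106b-5p to miR-106a-5p.

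**Figure D3:**
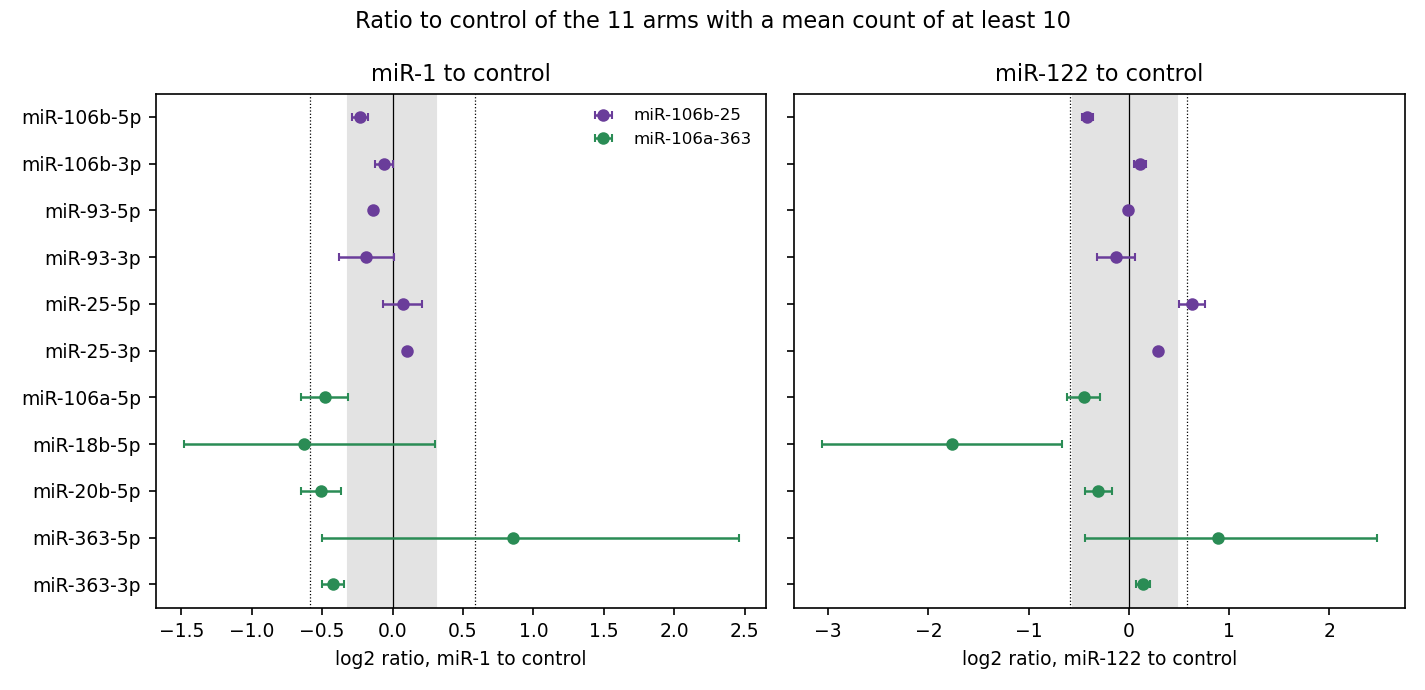
Log2 ratio to control (horizontal axis) of the 11 arms with a mean count of at least 10 (vertical axis), for the miR-1 library at left and the miR-122 library at right, with bars for the 95% counting interval, dotted lines at 1.5-fold and a grey band for the median of all 514 miRNAs plus or minus their spread (0.31 and 0.52). In the miR-1 panel miR-20b-5p, miR-106a-5p, miR-363-3p and miR-18b-5p lie left of the band and miR-363-5p right of it, and in the miR-122 panel miR-25-5p and miR-363-5p lie right of it and miR-18b-5p left.

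Set directly against each other, the miR-1 and miR-122 libraries differed most in miR-363-3p and miR-25-5p among the members that averaged 100 counts or more. miR-363-3p was at −0.57 (−0.64 to −0.49) and miR-25-5p at −0.56 (−0.69 to −0.44), miR-1 to miR-122, with 15 and 16 of the 263 miRNAs at or below them. miR-20b-5p was at −0.20, miR-25-3p at −0.19 and miR-93-5p at −0.13, whereas miR-106b-5p was at 0.18, or −0.049 with the induced miRNAs in the totals. Past 1.5-fold stood 1 arm, miR-18b-5p on the higher side (19.5 against 9 counts, at 1.14, interval 0.02 to 2.54), against 14% of all miRNAs (5.45% were past 2-fold, as this arm was), and 0 arms on the lower side, against 9.14%. The cluster ratio was higher in the miR-1 library by 0.27 (0.21 to 0.33), and this difference was −0.034 without hsa-mir-363.

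Within a cluster, some guide arms did not keep a fixed proportion to each other. miR-25-3p to miR-93-5p was 1.13, 1.33 and 1.40, with log2 differences from the control of 0.24 (0.22 to 0.27) and 0.31 (0.28 to 0.33). miR-25-3p to miR-106b-5p was 8.86, 11.1 and 14.5, and in the miR-122 library its log2 difference was 0.71 (0.65 to 0.77). On chromosome X, miR-363-3p to miR-20b-5p was 3.13, 3.31 and 4.27. That ratio differed from the control by 0.08 (−0.08 to 0.24) in the miR-1 library and by 0.45 (0.30 to 0.60) in the miR-122 library. In both clusters the miR-25 seed guide at the 3′ end was thus higher relative to a miR-17 seed guide from an upstream hairpin in the miR-122 library than in the control. miR-20b-5p to miR-106a-5p, both with the miR-17 seed, was 1.39, 1.37 and 1.54, with intervals of the difference that included 0.

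The balance of arms was followed in hsa-mir-106b, the hairpin with 2 arms at similar levels. The 5p arm held 57.1% (56.1 to 58.1, Wilson interval) of its counts in the control, 54.2% (53.2 to 55.2) with miR-1 and 48.0% (47.0 to 49.1) with miR-122. The log2 ratio of 5p to 3p differed from the control by −0.17 (−0.25 to −0.09) and −0.53 (−0.61 to −0.44). Shifts of this size were common: among 45 hairpins with a mean of at least 100 counts on both arms, the median absolute difference was 0.22 and 0.45, and 25 and 19 hairpins differed at least as far as hsa-mir-106b. In hsa-mir-25 the 5p arm held 1.63%, 1.59% and 2.05%, a log2 difference from the control of 0.34 (0.21 to 0.47) in the miR-122 library. The 3p share of hsa-mir-93 was 1.05%, 1.02% and 0.970%, with intervals of the difference that included 0.

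The chromosome X hairpins kept their dominant arm in all libraries. hsa-mir-106a gave 98.7%, 98.9% and 98.8% of its counts from the 5p arm and hsa-mir-20b 98.7%, 99.3% and 99.0%. hsa-mir-363 gave 99.8%, 99.4% and 99.6% from the 3p arm.

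**Figure D4:**
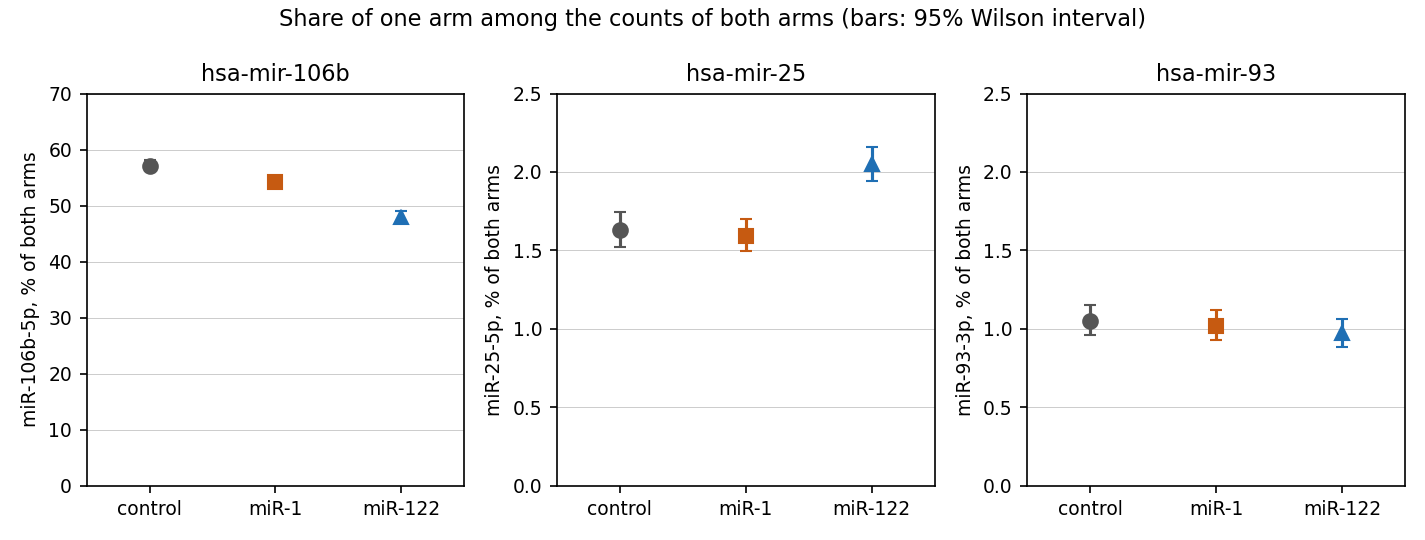
Share of the counts of both arms (vertical axes, percent) taken by miR-106b-5p, miR-25-5p and miR-93-3p in each library (horizontal axes), with bars for the 95% Wilson interval. The share of miR-106b-5p is 57.1% in the control and 48.0% in the miR-122 library.

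Placed among all miRNAs that carry the same seed, the members were a minor to middling part of each pool. The miR-17 seed was shared by 8 listed miRNAs, of which 6 had a mean count of at least 10, with 143100, 145161 and 137203 counts. The 4 members supplied 34.4% (34.2 to 34.7), 32.3% (32.1 to 32.6) and 38.4% (38.1 to 38.6) of them. Nearly all of that was miR-93-5p, with 29.5%, 28.1% and 34.1%, and miR-20a-5p was the largest single source at 45.8%, 48.2% and 44.7%. The chromosome X arms miR-106a-5p and miR-20b-5p together supplied 1.14%, 0.847% and 1.03%. miR-519d-3p and miR-526b-3p had no counts.

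The miR-25 seed pool held 160516, 172616 and 207247 counts from 5 miRNAs that averaged 10 counts or more. miR-92a-3p supplied 65.1%, 63.7% and 63.5% of it, miR-25-3p 29.7%, 31.6% and 31.5%, and miR-363-3p 1.84%, 1.36% and 1.76%. miR-32-5p, with 3339, 3708 and 4203 counts, and miR-92b-3p, with 2068, 2153 and 2628, were in the range of miR-363-3p. In the miR-18 seed pool miR-18b-5p supplied 0.796%, 0.504% and 0.420%, and the rest was miR-18a-5p.

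**Figure D5:**
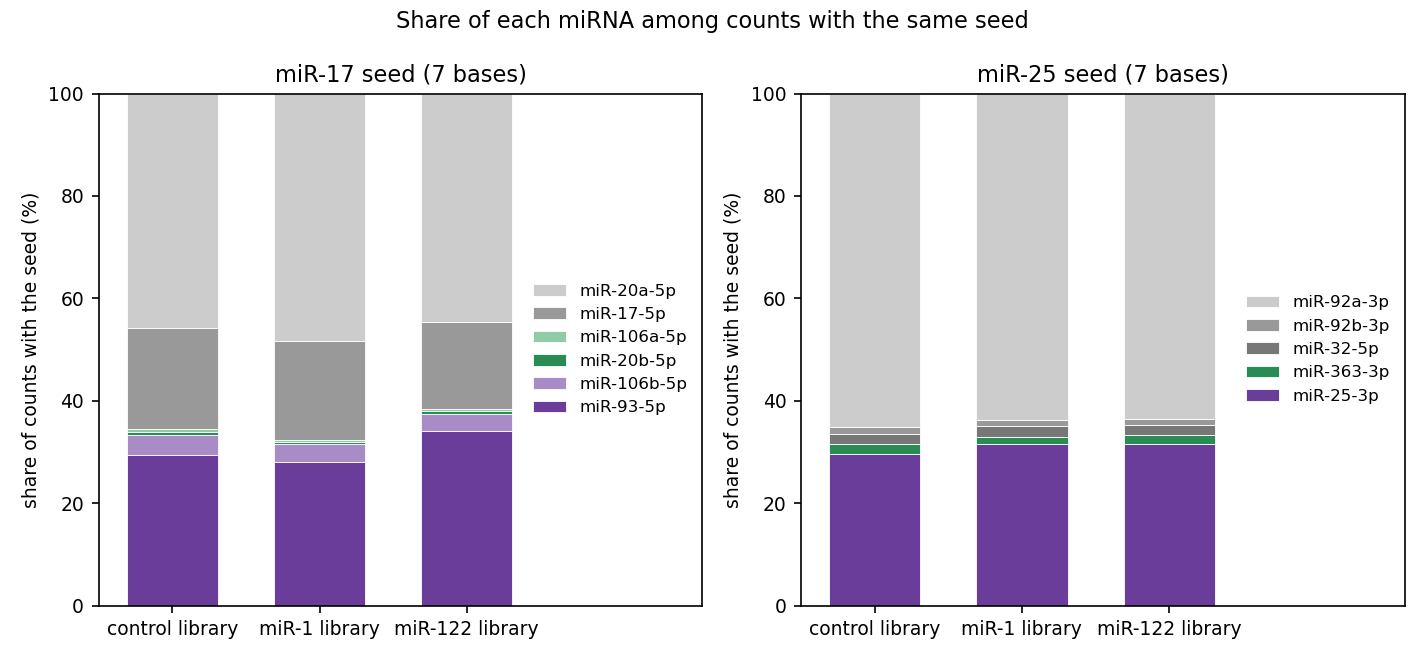
Stacked shares (vertical axes, percent of the counts with a seed) of the miRNAs with the miR-17 seed at left and the miR-25 seed at right in each library (horizontal axes); purple marks miR-106b-25 arms, green miR-106a-363 arms and grey other miRNAs. miR-93-5p takes 29.5%, 28.1% and 34.1% of the miR-17 seed counts, and the green miR-106a-363 bands stay below 2% in both pools.

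The miR-17-92 relatives of the members were read from a list of 14 arms, of which 11 had a mean count of at least 10. In the miR-1 library 0 of these were at least 1.5-fold higher than in the control, beside 7.39% of all miRNAs. On the lower side were 2, miR-20a-3p (58 to 41 counts) and miR-19b-1-5p (32 to 19 counts), both passenger arms, beside 9.34% of all miRNAs. In the miR-122 library 0 were higher, beside 11.3% of all. There 5 were lower, beside 15.8% of all: miR-18a-5p, miR-19a-3p, miR-19b-3p, miR-20a-3p and miR-19b-1-5p. The medians were −0.02 and −0.52. Between the miR-1 and miR-122 libraries, 5 were at least 1.5-fold higher in miR-1 and 0 lower, beside 14% and 9.14% of all, with a median of 0.51.

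Among the guides of miR-17-92, the miR-25 seed arm was higher and the miR-17 seed arms were lower in the miR-122 library than in the control. miR-92a-3p, with 104530, 109913 and 131541 counts, was at 0.17 (0.16 to 0.18), miR-122 to control, and at −0.32 only with the induced miRNA in the total. miR-17-5p, with 28302, 28185 and 23212.5 counts, was at −0.44 (−0.47 to −0.42) and miR-20a-5p, with 65565, 70024 and 61335, at −0.26 (−0.27 to −0.24). miR-18a-5p, with 3552.5, 3852.5 and 2132 counts, was at −0.90, and the miR-19 guides miR-19a-3p and miR-19b-3p were at −0.86 and −0.80. miR-92a-3p to miR-20a-5p was accordingly 1.59, 1.57 and 2.14. GC content moved weakly with the miR-122 ratio over the 235 miRNAs that had a RefSeq sequence and averaged 100 counts or more. Spearman's rho across miRNAs was 0.30 and Pearson's r was 0.13. Over the 11 member arms rho was 0.40. For the ratio of miR-1 to control, rho was 0.11 over the 235 miRNAs, 0.057 over the 452 and 0.58 over the member arms. The part of GC content in these values was not tested.

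In the miR-1 library the 3 abundant chromosome X arms differed from their miR-17-92 counterparts. miR-106a-5p made up 2.40%, 1.84% and 2.39% of the miR-17-5p count, and miR-20b-5p 1.44%, 1.01% and 1.39% of miR-20a-5p. miR-363-3p made up 2.83%, 2.14% and 2.77% of miR-92a-3p. The log2 difference of these proportions between the miR-1 library and the control was −0.38 (−0.55 to −0.22), −0.51 (−0.65 to −0.37) and −0.40 (−0.48 to −0.33). For the miR-122 library all 3 intervals included 0. The scarce miR-18b-5p made up 0.802%, 0.506% and 0.422% of miR-18a-5p. Its difference between the miR-1 library and the control was −0.66 (−1.50 to 0.17). For the chromosome 7 arms this difference was closer to 0 or positive. It was −0.13 (−0.19 to −0.07) for miR-106b-5p, at 19.0%, 17.3% and 19.4% of miR-17-5p, and −0.043 (−0.073 to −0.012) for miR-93-5p, at 1.49, 1.45 and 2.01 times miR-17-5p. miR-25-3p, at 45.6%, 49.6% and 49.6% of miR-92a-3p, differed by 0.12 (0.10 to 0.14).

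The endogenous miRNAs whose ratios to control lay nearest to those of the clusters were taken from 245 candidates outside the 3 paralogous clusters with a mean count of at least 100, by Euclidean distance over the 2 log2 ratios. For miR-106b-25 they were miR-1303, miR-455-5p and miR-92b-3p, at distances of 0.037, 0.051 and 0.054. For miR-106a-363 they were miR-1301-3p (559, 463 and 602 counts), miR-204-5p (175, 145 and 201) and miR-664a-3p (149, 105 and 148), at 0.090, 0.107 and 0.206. Likeness over 3 libraries is a description and carries no test.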

How the data were processed

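Small RNA was sequenced in 3 libraries of Flp-In T-REx 293 cells, grouped by the submitters' labels. Per the study's methods, adapters were removed, reads of at least 18 nt were kept, identical reads were merged with their number, and the authors counted mature miRNAs with miRDeep2 on miRBase release 21 hairpins, to which the synthetic hairpins were added. The submitters' processing notes name hg19. The authors deposited estimated counts for each mature arm and hairpin, in which a read that fitted several hairpins was divided among them. RPM values, scaled to all miRNA reads with the induced miRNAs, were also deposited by the authors. In them 1 count was worth 0.611, 0.346 and 0.388 RPM (control, miR-1, miR-122); they were not used for comparisons. A pooled total also listed exceeded the 3 libraries by 21.0% of its value, and those further reads were not analysed here. Reads carried no molecular identifiers, so intervals cover counting error only.

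Estimated counts were summed per mature miRNA. Endogenous miRNAs (all but synthetic hairpins) with a mean count of at least 10 were kept, 514 of 1351 with any count, and libraries were scaled by TMM on them (edgeR 4.0.16, R 4.3.3; other steps in Python 3.11.15). The highest log2 ratio in the kept set was 10.0, miR-122 to control, and the lowest was −11.7, miR-1 to miR-122. Whether a kept entry held reads of an induced hairpin was not tested. Log2 ratios used a pseudocount of 0.5, with exact (Clopper-Pearson) conditional intervals on rounded counts. Ratios of ratios had Wald intervals on the log scale and shares Wilson intervals, all at 95%. A miRNA was called at 1.5-fold; with 1 library per group no test was made. The steps were tested on simulated data. RefSeq sequences were matched by miRNA name, for 452 of the 514.

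The members and lists were chosen with earlier results of these data known. Named were all member arms, the arms of miR-17-92 and of the hairpins shared with it, miRNAs with a member's seed, miR-1-3p and miR-122-5p, blood miRNAs and the 3 nearest profiles per cluster. Alternatives covered scaling, count filter, pseudocount, fold limit, and the arms and hairpins summed.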

Additional observations from a re-analysis of the deposited data

How the results depend on the processing

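Over 21 results and 135 alternatives, 71 values stayed within their counting interval (or a count within 1.5 times), 58 moved beyond it and 6 turned direction. These intervals are narrow, so small shifts count as moved. No paired analysis was possible because there was a single library for each group, and for the same reason no replicate could be left out. Scaling by the total with induced miRNAs put the median of all miRNAs at −0.73, −0.53 and −0.22: the miR-1 library to control, the miR-122 library to control, and the former to the latter. It gave −0.75, −0.36 (turned) and −0.39 for miR-106b-25 and −1.18, −0.52 and −0.66 for miR-106a-363. In the same order, the endogenous total gave −0.059, 0.042 and −0.10 for miR-106b-25 and −0.12 for miR-106a-363 in miR-122, with the median of all miRNAs in miR-122 at −0.13. Upper-quartile scaling gave 0.073 (turned) and 0.24 for miR-106b-25 and −0.36 and 0.079 for miR-106a-363, each in miR-1 and miR-122 to control. The value of 0.079 also changed sign but was counted as moved. Its main value, −0.02 (−0.08 to 0.03), had an interval that included 0. TMM at a mean count of at least 100 gave 0.015 (turned), 0.15 and −0.14 for miR-106b-25, and TMM without a count filter 0.12 and −0.13 in the comparisons with miR-122. The mean over hairpins, which weights scarce hsa-mir-18b like the others, gave −0.065, 0.041 and −0.11 for miR-106b-25, and −0.56 (miR-122 to control) and 0.048 (turned, miR-1 to miR-122) for miR-106a-363.

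The ratio of clusters (control, miR-1, miR-122) was 20.7, 27.9 and 23.0 with the more abundant arms only, 25.5, 34.1 and 27.2 without hsa-mir-106a, and 31.1, 39.9 and 39.4 without hsa-mir-25 and hsa-mir-363. The ratio was highest in miR-1 in each, but in the last it exceeded that of miR-122 by only 0.017 on the log2 scale. Its log2 difference, miR-1 to control, was 0.51 without hsa-mir-93 and 0.31 without hsa-mir-25. For miR-122 to control it was 0.26 without hsa-mir-93, −0.017 (turned) without hsa-mir-25, 0.094 without hsa-mir-106a, 0.092 without hsa-mir-20b, and 0.52 without hsa-mir-363. For miR-1 to miR-122 it was −0.034 (turned) without hsa-mir-363. Leaving out hsa-mir-25 and hsa-mir-363 together, an alternative chosen after seeing the data, gave 0.36, 0.34 and 0.017 in the 3 comparisons.

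Calls at 1.5-fold, that of miR-25-5p aside, rested on scarce arms. The call of miR-25-5p was lost when scaled by the endogenous total, at 0.54 for miR-122 to control. In miR-1 to control the count of higher arms went from 1 to 0 with a 2-fold limit, a pseudocount of 5, a mean count of at least 100 or the total with induced miRNAs. The count of lower arms there went from 1 to 0 with the first 3 of these and upper-quartile scaling, to 3 without a filter and to 10 with the induced total. In miR-122 to control the higher count went from 2 to 1 with a pseudocount of 5, a mean count of at least 100 or the endogenous total, and to 0 with a 2-fold limit or the induced total. The lower count there went from 1 to 0 at a mean count of at least 100 and to 5 with the induced total. In miR-1 to miR-122 the higher count went from 1 to 0 at a mean count of at least 100, and the lower count from 0 to 2 without a filter or with the induced total. Shares of all miRNAs under these alternatives were not set beside the counts, so the counts describe no trait of the members. With the induced total the median of all miRNAs in miR-1 to control, −0.73, was itself past the 1.5-fold limit. Shares of the miR-17 seed counts did not move when other miRNAs were left out, which had no counts. The depth, 1636481 to 1947669 endogenous counts per library, leaves the 5 scarce miR-106a-363 arms without a resolved direction, miR-18b-5p in miR-122 to control aside. In miR-1 to miR-122 the interval of miR-18b-5p began at 0.02, with its 19.5 counts in the miR-1 library rounded to a whole number.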
